A study of Glycine max with 6 samples.

Results

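Binding of the soybean protein GLYMA.13G153200, which the deposited peak names call ABI5, was mapped in embryos by ChIP-seq, the sequencing of DNA fragments precipitated with an antibody to a chromatin protein. The regions described here are those that every ChIP library called and that had another such region close by, on the chromosome arms. Peaks of different libraries were joined into 1 region when they overlapped by at least 50% of the shorter peak, and 11511 of 39947 joined regions held a peak of all 4 libraries. Of these, 8579 had their midpoint in the outer 25% at either end of a chromosome, with chromosome 13 left out. Closely spaced regions were the 1019 of the 8579 whose midpoint lay within 2000 bp of the midpoint of another shared region, which is 11.9% (95% exact binomial interval 11.2 to 12.6). The remaining 7560 shared arm regions had no shared neighbour at that distance and are called lone. The members were thus chosen by the calls and positions of the peaks, so the spacing and the calls are a description with no test. Closely spaced regions come in groups, so binomial intervals that count them singly, here and below, may be too narrow.

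All 6 samples came from Glycine max cultivar Williams 82, from mid-maturation embryos of seeds of 200 to 250 mg, with no treatment or mutant named in the labels. The antibodies, numbered 1 and 2, were made to separate peptides of the protein, though the labels do not tie a number to a peptide, and each has biological replicates 1 and 2, which makes 4 ChIP libraries. The p-values below rest on these 4 libraries, measured at the same regions. The labels do not state whether same-numbered libraries of the 2 antibodies share chromatin or an input. Deviations of same-numbered libraries in log2 fold enrichment, a ratio of signal to background, correlated across the shared arm regions (r = 0.651). The part of the background in this correlation was not tested. The 4 libraries may thus not be independent, though the tests and SDs treat them so. A further 2 libraries, replicates 1 and 2 of input (unprecipitated chromatin), entered only through the background in the deposited values, and a precipitation from embryos lacking the protein was not analysed here. Whole embryos were used, so fewer cells with a bound site and weaker binding in each cell cannot be told apart.

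ABSCISIC ACID INSENSITIVE 5 was named from Arabidopsis, where it is a basic leucine zipper (bZIP) transcription factor that acts in the response of seeds to the hormone abscisic acid. bZIP factors bind DNA as dimers, and many plant members recognise short elements with an ACGT core, which often occur in several copies in the promoters of genes switched on in maturing seeds. At mid-maturation the cotyledons of the soybean embryo store protein and oil. Genes and DNA sequence at the regions were not analysed here, as the annotation at hand was of another genome build than the peak coordinates.

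The 4 lists held 12047 to 36189 peaks, and antibody 1 replicate 1 was the shortest. Fold enrichment, the authors' own value for each peak, is the ratio of signal to expected background at the summit (the peak's highest point). The number of fragments at each summit and the expected background (in the peak caller's scaled units) were recovered from the deposited fold enrichment and −log10 p. At the closely spaced regions the median was 47 fragments in antibody 1 replicate 1, 61 in antibody 1 replicate 2, 87 in antibody 2 replicate 1 and 60 in antibody 2 replicate 2. Antibody 2 replicate 1 was therefore the most deeply sampled at these sites, and a single region rests on 19 to 382 fragments in a library. Intervals on fragments are 95% exact Poisson intervals and cover counting error only.

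The closely spaced regions formed 488 groups, most of them simple pairs. There were 450 groups of 2 regions, 34 of 3, 3 of 4 and 1 of 5, so 900 of the 1019 regions belonged to a pair and 119 to a larger group. Groups of 2 spanned 826 to 2890 bp from edge to edge, groups of 3 spanned 1927 to 3991 bp, and the group of 5 spanned 5425 bp. The groups held 531 pairs of adjacent regions. The midpoints of adjacent regions lay 466 to 2000 bp apart, with a median of 1224.5 bp and quartiles of 908 and 1573 bp. A median of 677 bp without a shared call separated the edges of neighbours, and 99 of the 531 pairs had less than 300 bp between their edges. The median distance between summits was much the same by library, from 1211 bp in antibody 2 replicate 2 to 1229 bp in antibody 1 replicate 2. Within a pair it varied over the libraries by a median of 67 bp.

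By steps of 250 bp, there were no pairs below 250 bp, 4 at 250 to 500 bp, 68 at 500 to 750 bp and 95 at 750 to 1000 bp. The most numerous were the 106 pairs at 1000 to 1250 bp, followed by 93, 94 and 71 in the 3 steps up to 2000 bp. Regions had a median width of 477 bp, and peaks of different libraries that overlapped by 50% or more of the shorter were joined, which limits how close separate regions can lie. In 1 pair the edges of the neighbours overlapped. Strength did not follow the distance closely. Median fold enrichment in antibody 2 replicate 2 was 9.20 at 500 to 750 bp, 9.41 at 1000 to 1250 bp and 9.65 at 1750 to 2000 bp. At the same distances it was 4.99, 5.49 and 5.68 for antibody 1 replicate 1. Across the 531 pairs, which share libraries and neighbouring sites, Spearman's rho of distance with the mean log2 fold enrichment of the pair was 0.083.

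**Figure D1:**
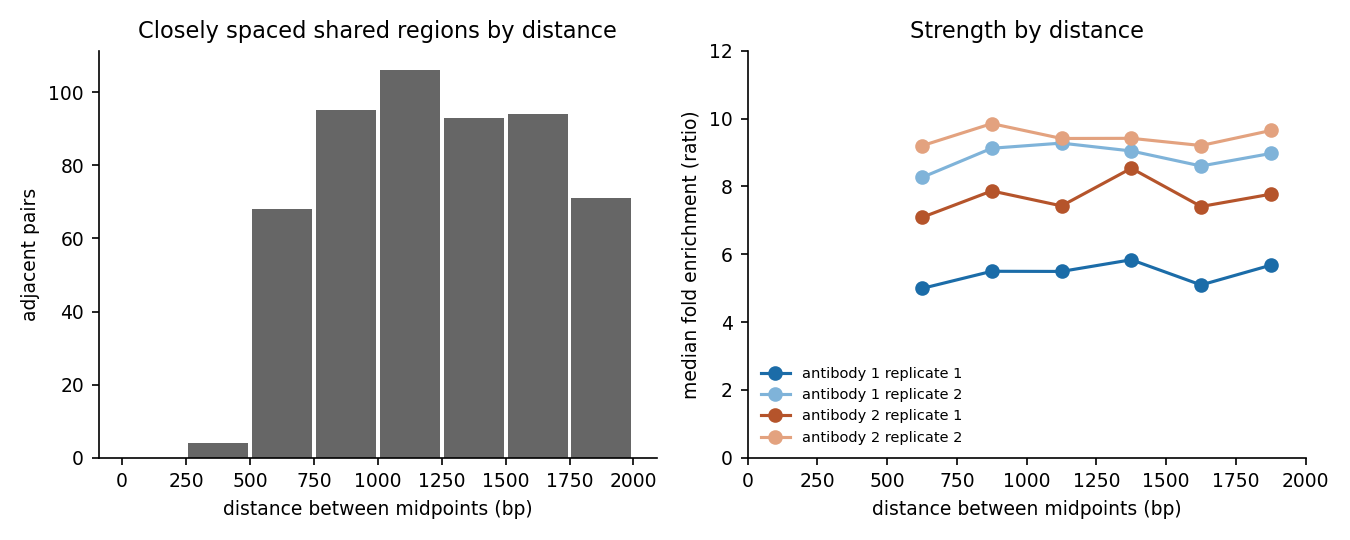
Left, number of adjacent pairs of closely spaced shared regions by the distance between midpoints in bp, in steps of 250 bp. Right, median fold enrichment (ratio) of the regions in each step with 20 or more pairs, by library. The bars peak at 106 pairs at 1000 to 1250 bp, and the 4 lines stay nearly level, with antibody 1 replicate 1 the lowest.

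Regions with a close neighbour were bound about as strongly as lone ones. Their median fold enrichment was 5.432 in antibody 1 replicate 1, 8.99 in antibody 1 replicate 2, 7.54 in antibody 2 replicate 1 and 9.42 in antibody 2 replicate 2. The lone regions had 5.433, 8.65, 7.38 and 9.10 in the same order. The closely spaced regions were thus a little higher in 3 of the 4 libraries and level in antibody 1 replicate 1, and their quartiles overlapped widely with those of the lone regions. The log2 ratio of the medians averaged 0.034 ± 0.025 over the libraries (SD, n = 4), which an exact two-sided sign-flip permutation test over the 4 libraries did not separate from 0 (p = 0.25, where 0.125 is the smallest p that 4 libraries allow). Without antibody 1 replicate 1, whose list is short, 2663 regions were closely spaced and this mean was 0.0046, and without antibody 2 replicate 2 it was 0.022.

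The number of fragments at the summit was slightly higher at closely spaced regions. For lone regions the medians were 45 and 58 fragments with antibody 1 and 82 and 58 with antibody 2, against the 47, 61, 87 and 60 given above. The closely spaced regions were higher in 4 of 4 libraries, by a mean log2 ratio of 0.067 ± 0.015 (SD, n = 4; exact sign-flip permutation test, p = 0.125, the smallest possible). The expected background differed little. Its medians at closely spaced regions were 7.11 and 5.78 with antibody 1 and 7.35 and 5.29 with antibody 2. It was higher than at lone regions in replicate 1 of either antibody, lower in antibody 2 replicate 2, and 5.78 in both sets in antibody 1 replicate 2 (mean log2 ratio 0.0079 ± 0.0359, SD, n = 4; exact sign-flip permutation test, p = 0.75).

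**Figure D2:**
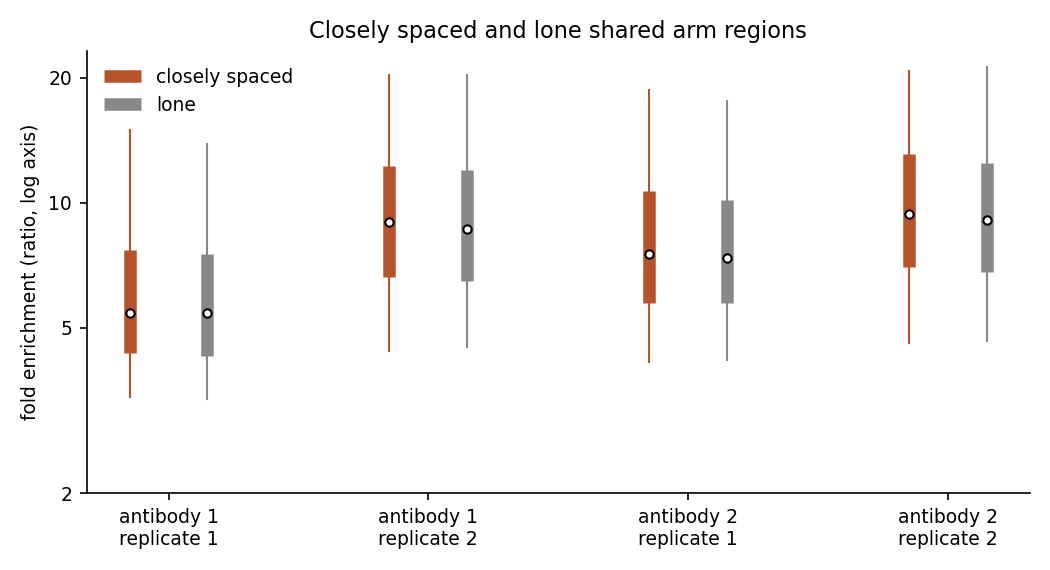
Fold enrichment (ratio, log axis) of the 1019 closely spaced and 7560 lone shared arm regions in each library. Points are medians, thick bars run from the 25th to the 75th percentile of regions and thin lines from the 5th to the 95th. In each library the bars of closely spaced and lone regions lie side by side at nearly the same height.

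The share of strong sites among the closely spaced regions was near that of all shared arm regions. In antibody 1 replicate 1, 117 of the 1019 (11.5%) were in the top 10% of fold enrichment of their list, against 10.5% of all 8579 shared arm regions. For antibody 1 replicate 2 these shares were 24.8% (253 regions) and 23.5%. Antibody 2 gave 22.5% (229 regions) and 19.8% with replicate 1, and 30.1% (307 regions) and 27.4% with replicate 2. The share exceeded that of the lone regions in 4 of 4 libraries, by a mean of 2.20 ± 1.02 percentage points (SD, n = 4; exact sign-flip permutation test, p = 0.125, the smallest possible). In all 4 lists at once, 107 closely spaced regions (10.5%, 95% exact binomial interval 8.69 to 12.5) were in the top 10%, against 9.05% of all shared arm regions. Without antibody 1 replicate 1 the difference from lone regions was 1.17 points, without antibody 2 replicate 1 it was 1.57 points, and with midpoints within 1000 bp it was 0.283 points (exact sign-flip permutation test over 4 libraries, p = 0.875).

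The shape of the sites hardly differed either. Closely spaced regions had a median width of 477 bp, with quartiles of 406 and 588.5 bp, and lone ones 464 bp, with quartiles of 397 and 568 bp. Within each library the peaks of closely spaced regions were wider by 5 to 15 bp at the median, by 8.0 ± 4.8 bp on average (SD, n = 4; exact sign-flip permutation test, p = 0.125, the smallest possible). Width is limited by the spacing, so it is not fully independent of the rule. With midpoints within 1000 bp in place of 2000 bp, which limits width more, the sign turned. The peaks of the closer regions were then narrower by a mean of 6.75 bp (difference −6.75 bp). Without antibody 1 replicate 1 the difference was 3.33 bp, and without antibody 2 replicate 1 it was 5 bp. The 4 libraries placed the summit of a region within 100 bp of one another in 921 of the 1019 closely spaced regions (90.4%, 95% exact binomial interval 88.4 to 92.1) and in 90.9% of the lone ones. The median distance between the outermost of the 4 summits was 43 bp in both. A second peak of at least 1 library was joined into 43 of the closely spaced regions (4.22%, interval 3.07 to 5.64) and into 2.94% of the lone ones (2.57 to 3.34).

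Neighbours within 2000 bp were often unequal, about as much as more distant ones, and the libraries mostly ranked them alike. The stronger of 2 adjacent regions had, at the median, 1.43 and 1.55 times the fold enrichment of the weaker with antibody 1 and 1.49 and 1.57 times with antibody 2 (replicate 1 first). For adjacent regions more than 2000 and up to 10000 bp apart it was 1.49, 1.55, 1.51 and 1.54 times in the same order. In 326 of the 531 pairs the same region was the stronger in all 4 libraries (61.4%, 95% exact binomial interval 57.1 to 65.6). This is close to the 62.9% of all 2092 adjacent shared arm regions up to 10000 bp apart. By number of fragments the order was the same in all 4 libraries in 384 pairs (72.3%, interval 68.3 to 76.1), against 69.6% of all 2092 and 68.7% of the 1561 pairs more than 2000 bp apart. Of the remaining pairs by fold enrichment, 133 had 3 libraries against 1 (25.05% of the 531), and 72 had 2 against 2 (13.6%). For the 1561 pairs more than 2000 bp apart these shares were 22.9% and 13.7%. In 49 of the 72 pairs (9.23% of the 531) the split ran between replicate 1 and replicate 2, and in 9 (1.69%) between the antibodies. By fragments the split between replicates was seen in 18 pairs (3.39%). The more distant pairs had 9.93%, 2.18% and 4.29% in the same order. By share, these splits were thus no more frequent between close neighbours. The median expected background was higher in replicate 1 of either antibody, and its part in the splits was not tested.

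Counting error left many of these differences undecided in a single library. The Poisson intervals of the 2 neighbours were separate in 183 and 220 pairs with antibody 1 and in 263 and 214 pairs with antibody 2 (replicate 1 first). These were 34.5%, 41.4%, 49.5% and 40.3% of the 531 pairs. The shares were near those of the 1561 more distant pairs, 36.4%, 41.1%, 48.4% and 39.3% in the same order. The intervals did not overlap in the same direction in all 4 libraries in 119 pairs (22.4%, interval 18.9 to 26.2), against 24.4% of all 2092 adjacent pairs and 25.1% of the more distant ones. In no pair did the intervals separate in opposite directions in different libraries (0 of 531, which allows up to 0.692% by the exact binomial interval), and they did in 2 of the 1561 more distant pairs.

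The strength of a region told little about that of its neighbour. Across the 531 pairs, Spearman's rho between the fold enrichments of the left and the right region was 0.060 and −0.0037 with antibody 1, and 0.048 and −0.042 with antibody 2 (replicate 1 first). Adjacent shared arm regions more than 2000 and up to 10000 bp apart, of which there were 1561, had −0.0054, 0.0096, −0.0030 and −0.0058 by library, in that order. These coefficients are across regions of the same libraries and carry no test. The expected background was slightly more alike between close neighbours, with rho of 0.139 to 0.185 over the libraries, against 0.0376 to 0.0800 for the more distant ones. In 7 of the 531 pairs (1.32%) both regions were in the top 10% of all 4 lists, in 99 (18.6%) only 1 was, and in 425 neither was. For the 1561 more distant pairs, 17 (1.09%) had both and 255 (16.3%) had 1. The stronger region was the one nearer the chromosome end in 160 of the 326 pairs with the same order in all libraries, and the one farther from it in 166.

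**Figure D3:**
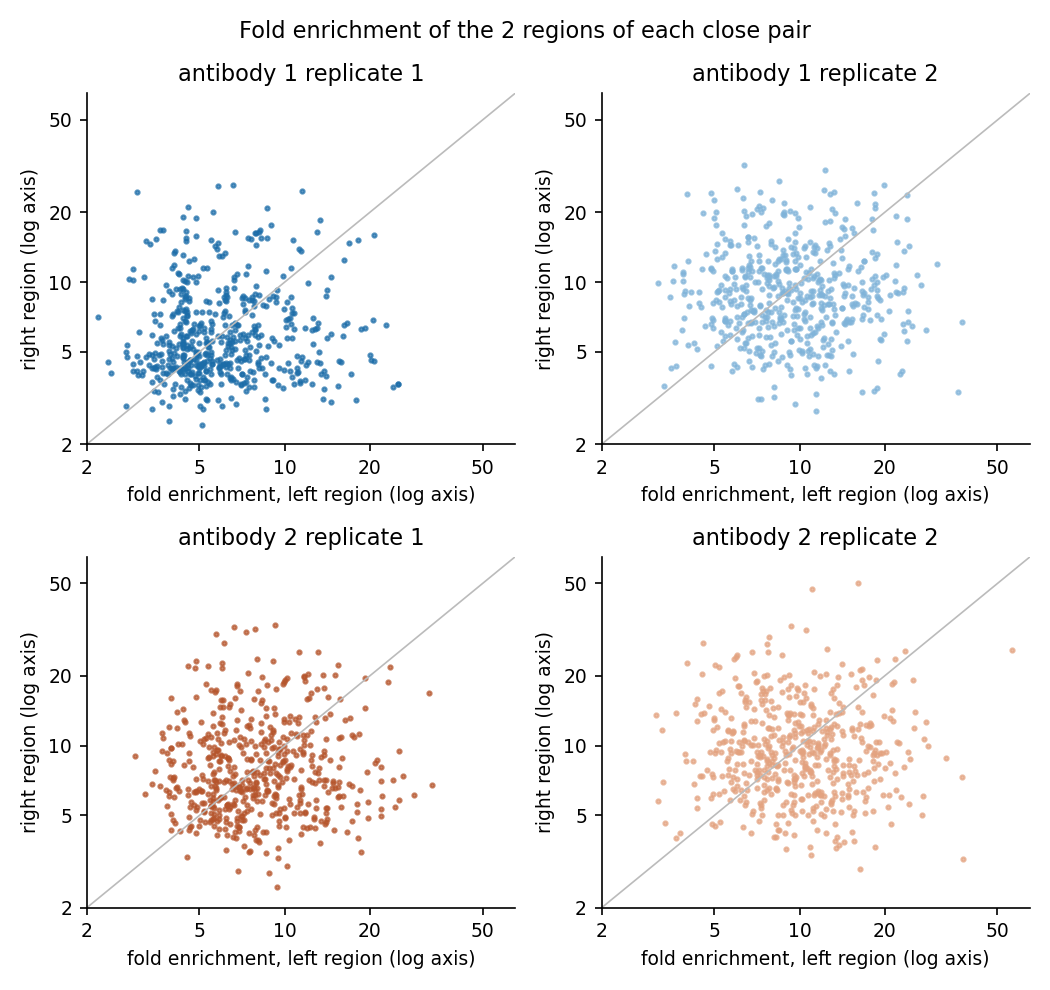
Fold enrichment of the left region (horizontal, ratio, log axis) against the right region (vertical, ratio, log axis) of the 531 adjacent closely spaced pairs, 1 panel per library, with the line of equal values. The points form a round cloud in each panel, with rho between −0.042 and 0.060, and a few pairs lie far from the line.

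The strongest groups, ranked by the worst within-list percentile of any member in any library, held 10 groups on 7 chromosomes. Coordinates are those of the deposited lists, counted from 1, and the build is not given in the sources used here. The first was a pair on chromosome 2. Its left region, at 44766277 to 44766962, had fold enrichments of 16.9 and 18.1 for antibody 1 and of 23.1 and 18.1 for antibody 2 (replicate 1 first, here and below), from 130, 174, 234 and 171 fragments. Its right region, at 44767467 to 44768013, had 14.8 and 18.6 in antibody 1 and 18.8 and 16.5 in antibody 2, from 151, 173, 244 and 144 fragments. The Poisson intervals of the neighbours overlapped in all 4 libraries, from 109 to 154 and from 128 to 177 fragments in antibody 1 replicate 1 for example. These are 2 sites of nearly equal strength 1120.5 bp apart.

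The second group lay on chromosome 8, with midpoints 708 bp apart and 62 bp between the edges in the joined calls. The region at 1228172 to 1228759 had fold enrichments of 13.4 and 18.4 in antibody 1 and 15.4 and 21.7 in antibody 2. Its neighbour at 1228822 to 1229525 had 18.6 and 24.3 in antibody 1 and 22.2 and 23.7 in antibody 2. The neighbour was the stronger in every library by fold enrichment. By fragments the regions were near each other, at 150 against 142 in antibody 1 replicate 1 and 128 against 140 in antibody 2 replicate 2. The expected background there was 10.0 against 6.48 in the former library and 4.95 at both regions in the latter.

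On chromosome 14, the third group paired a wide region of 1105 bp at 5471024 to 5472128 with one of 549 bp at 5472405 to 5472953. The wide one had fold enrichments of 18.1 and 18.5 in antibody 1 and 19.2 and 13.7 in antibody 2, and the narrow one had 15.2 and 20.96 in antibody 1 and 19.6 and 19.8 in antibody 2. The fragments were more numerous at the wide region in all 4 libraries (178, 165, 249 and 148, against 111, 122, 190 and 109). Fold enrichment favoured the narrow region in 3 libraries, and its expected background was the lower in all 4.

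A further pair each was ranked on chromosome 2 (43777417 to 43779883), chromosome 8 (2480229 to 2482875), chromosome 6 (3180079 to 3181561), chromosome 12 (9188848 to 9190340), chromosome 14 (1418607 to 1420997) and chromosome 5 (35129376 to 35131354). Fold enrichment over these 6 pairs and the 4 libraries ran from 9.29 to 25.7. The remaining group of the 10 was a triplet on chromosome 17. Its regions at 10221459 to 10221998, 10222578 to 10223131 and 10223258 to 10224212 had 87, 117 and 202 fragments in antibody 1 replicate 1. With antibody 2 replicate 2 they had 102, 121 and 148. The rightmost was the highest of the triplet in fragments in all 4 libraries. In fold enrichment it led only in replicate 1, with 24.7 and 25.4 for antibodies 1 and 2, and the middle region led in replicate 2 with 21.9 and 21.2.

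The largest group, of 5 regions, lay on chromosome 11 from 31763902 to 31769326. Its middle region, at 31766082 to 31766727, had fold enrichments of 20.1 and 20.9 in antibody 1 and 33.2 and 32.9 in antibody 2, from 147, 141, 320 and 224 fragments. Its rightmost region, at 31768707 to 31769326, had 15.8 and 21.9 in antibody 1 and 18.5 and 19.8 in antibody 2. These are the strong sites of the group. The other 3 regions were weaker in every library, with fold enrichments between 4.87 and 11.6. A further peak with its summit 4118 bp right of the group's centre in antibody 1 and 4114 bp in antibody 2, was called in replicate 1 of both, with fold enrichments of 3.27 and 3.75.

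**Figure D4:**
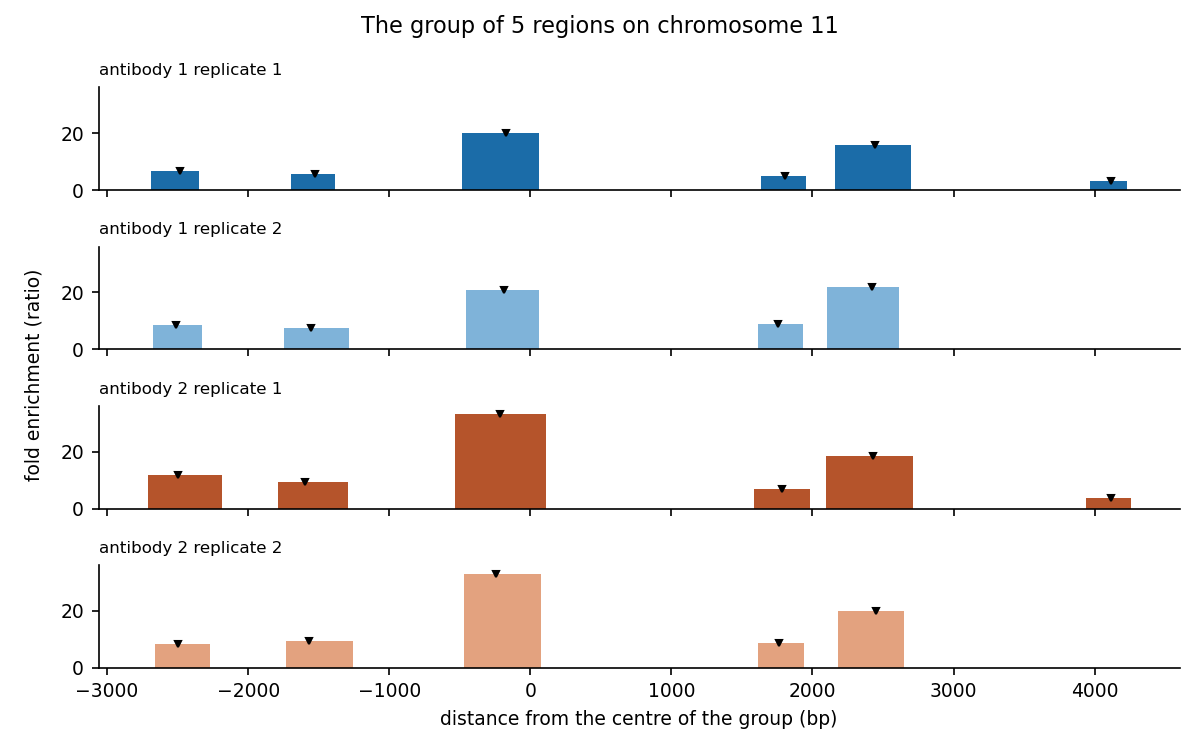
Peaks of the group of 5 regions on chromosome 11 in each library, by distance from the centre of the group in bp. Bars span each deposited peak, their height is its fold enrichment (ratio), and triangles mark summits. The middle and the rightmost of the 5 regions are the tallest in every library, and a sixth peak right of the group is present in the 2 replicate 1 panels.

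Groups of 4 regions were found on chromosomes 4, 5 and 12. On chromosome 4, the regions between 4062058 and 4065669 had 47 to 89 fragments in antibody 1 replicate 1 and 67 to 87 in antibody 2 replicate 2. The second region from the left had the most in 3 libraries and tied with the rightmost in antibody 2 replicate 2. By fold enrichment it led in replicate 1, with 11.8 and 17.6, and the rightmost led in replicate 2, with 13.4 and 14.6, where the second had 8.99 and 7.59. On chromosome 5, between 40535680 and 40539895, the first region was the strongest in all 4 libraries, with fold enrichments of 14.6 and 12.6 in antibody 1 and 16.95 and 16.4 in antibody 2. The rightmost there had 5.82 and 8.52 with antibody 1 and 8.66 and 12.1 with antibody 2. On chromosome 12, between 38083900 and 38088527, the libraries of different replicate number differed. The rightmost region of that group had 3.57 and 4.73 in replicate 1 of antibodies 1 and 2, and 12.4 and 11.8 in replicate 2. Its fragments were 43 and 87 in replicate 1 and 69 and 63 in replicate 2, and the expected background was 11 and 13 against 4.66 and 4.41. In the 34 groups of 3, the same region was the strongest in all 4 libraries in 15, and this was the middle one in 3.

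Some pairs joined a strong site to a weak one. The most unequal of those with the same order in all libraries lay on chromosome 12. Its left region, at 39597205 to 39598204, had 227 and 206 fragments in antibody 1 and 319 and 203 in antibody 2, and its neighbour at 39598741 to 39599300, 1316 bp away, had 39 and 34, and 77 and 32. The fold enrichments were 24.2, 36.3, 21.8 and 37.9 against 3.54, 3.37, 5.33 and 3.24, a median ratio of 8.59. A chromosome 7 region, 2730447 to 2731177, had 310, 308, 382 and 274 fragments, and its neighbour at 2731828 to 2732178 had 28, 59, 62 and 58, with a median ratio in fold enrichment of 5.35. The next 3 pairs had median ratios of 4.82 (chromosome 7, 41962012 to 41962970), 4.53 (chromosome 1, 51686872 to 51689323) and 4.51 (chromosome 6, 8390858 to 8393171). The chromosome 7 region at 2730447 was also the strongest of all closely spaced regions in antibody 1 replicate 2, with a fold enrichment of 37.6. In antibody 1 replicate 1 the strongest was on chromosome 11, 31810775 to 31811799, with 26.1 against 6.58 for its neighbour 1805.5 bp to the left. These were looked up after the values were seen. In all 5 of the most unequal pairs the left region was the stronger, and its Poisson interval lay above that of the neighbour in every library. The pairs were picked for large ratios with the same order in all libraries, so this separation adds no support.

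At the ends of the range of distance, the closest pair was on chromosome 12. Its regions at 5451737 to 5452078 and 5452185 to 5452562 had midpoints 466 bp apart. With antibody 1 they had 40 and 56 fragments (replicate 1) and 30 and 53 (replicate 2), and with antibody 2 they had 53 and 73 (replicate 1) and 41 and 46 (replicate 2). The right region was the higher in each. The widest pair inside the limit, on chromosome 5 at 40325249 to 40327980 and 2000 bp apart, had fold enrichments of 3.35 and 14.6 for its left and right region in antibody 1 replicate 1. The corresponding values of antibody 2 replicate 2 were 4.01 and 22.7. The nearest pair outside it, on chromosome 19 at 40236659 to 40239151 and 2001 bp apart, had 4.19 and 13.8, and 8.56 and 15.7. The 26 pairs at 1900 to 2000 bp had median fold enrichments of 5.24 and 8.69 in antibody 1 and 6.76 and 8.71 in antibody 2, and the 25 pairs at 2000 to 2100 bp had 5.32 and 9.03, and 7.72 and 9.67.

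A few closely spaced regions were far stronger with antibody 2 than with antibody 1. Antibody preference was taken as the log2 ratio of fold enrichment, antibody 2 over antibody 1, with each library set against its median over the shared arm regions. It ran from −0.83 to 2.25 over the 1019 regions. At 5 regions (0.491%, 95% exact binomial interval 0.160 to 1.14) antibody 2 was 2-fold or more above antibody 1, and at 0 the reverse held (upper limit 0.361%). Lone regions had 33 (0.437%) and 0, and the share in all shared arm regions was 0.443% for antibody 2. Differences of this size between replicates were more numerous: taken in the same way, 12 closely spaced regions were 2-fold or more higher in replicate 1 and 6 in replicate 2, with shares of 1.4% and 0.571% in all shared arm regions. These 5 were singled out after their values were seen.

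The strongest preference was at 1 pair on chromosome 8, in which both neighbours shared it. The left region, at 47622332 to 47623356, had fold enrichments of 4.95 and 11.4 in antibody 1 and 32.3 and 56.5 in antibody 2, from 60 and 68 fragments against 359 and 322. The right region, at 47624319 to 47625032, had 3.61 and 6.08 in antibody 1 and 16.9 and 25.8 in antibody 2, from 51 and 49 fragments against 224 and 172. The outermost of the 4 summits lay 229 bp apart at the left region and 174 bp at the right, against a median of 43 bp for closely spaced regions. Whether the libraries marked the same site there was not tested. No value of the antibody 1 libraries reached those of antibody 2 at either region. This was the only pair of the 531 with both regions beyond 2-fold, and 1 of the 1561 more distant pairs also had both.

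At the other 3 regions the neighbours did not share a 2-fold preference. A chromosome 6 region, 7253894 to 7254622, had 51 and 51 fragments in antibody 1 and 310 and 270 in antibody 2, and its neighbour 854 bp away, at 7253150 to 7253658, had 34 and 58 against 78 and 67. A chromosome 19 region, 7122123 to 7122803, had 68 and 85 against 281 and 262, and its neighbour at 7121014 to 7121543 had 32 and 59 against 98 and 81. On chromosome 11, the middle region of a triplet, at 31644310 to 31645167, had 35 and 50 against 175 and 202. Its neighbours at 31643515 to 31643821 and 31646421 to 31646819 had 43 and 38 against 76 and 39, and 44 and 73 against 74 and 60. The log2 preference was 2.17, 1.65 and 1.53 at the 3 regions, and between −0.17 and 0.49 at their 4 neighbours. Over all 531 pairs, both neighbours leaned to the same antibody in 279 (52.5%), against 50.2% of all 2092 adjacent pairs, and rho between their preferences was 0.016, against −0.015 for the 1561 more distant pairs.

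The difference between closely spaced and lone regions did not depend detectably on the antibody. The log2 ratio of medians was −0.00035 and 0.057 with antibody 1, and 0.031 and 0.050 with antibody 2. Antibody 2 exceeded antibody 1 by 0.012 on average, within the spread of the replicates (exact two-sided permutation test over the 4 libraries, p = 1, where 0.333 is the smallest possible).

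Beyond the 2000 bp of the rule, shared neighbours were slightly more frequent by count at closely spaced than at lone regions, with no test. At 2000 to 10000 bp from the midpoint, 416 of the closely spaced regions (40.8%, 95% exact binomial interval 37.8 to 43.9) had a further shared region, but 72 had a member of their own group there, which the rule itself supplies. With the own group left out, an alternative added after the data were seen, 388 had one (38.1%, interval 35.1 to 41.1). Of the lone regions 34.8% had one (33.7 to 35.9). The intervals overlapped, which does not show that the shares are equal. Leaving out the group also closes part of this distance to closely spaced regions, but not to lone ones. Within 100000 bp the mean number, counted in the same way, was 5.38 against 4.91, with a median of 5 for both. Regions called in 1 to 3 libraries were also nearby. At least 1 such region had its midpoint within 5000 bp of 550 closely spaced regions (54.0%, interval 50.9 to 57.1) and of 48.8% of the lone ones (47.7 to 49.9). Within 2000 bp the order turned, with 22.8% (20.2 to 25.5) against 25.3% (24.4 to 26.3). In that window each closely spaced region has a shared neighbour by the rule, which leaves less room for other regions. In 29 of the 531 pairs (5.46%) such a region lay between the midpoints of the neighbours. Of the 415 regions of 1 to 3 libraries within 5000 bp of closely spaced regions, 84.1% held a peak of antibody 2 replicate 2, the longest list, and 2.41% one of antibody 1 replicate 1. Near lone regions the shares were 85.3% and 1.66%. Regions of 1 neighbourhood are not independent, so these shares were not tested.

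Close spacing was found on all 19 chromosomes examined, at uneven rates. The share of shared arm regions that were closely spaced was highest on chromosome 11, at 15.5% (69 of 444, 95% exact binomial interval 12.3 to 19.3), followed by chromosome 14 at 15.0% (62 of 413) and chromosome 19 at 14.8% (66 of 445). It was lowest on chromosome 16, at 6.0% (18 of 300, interval 3.59 to 9.32), and next on chromosome 10, at 8.81% (45 of 511). The interval of chromosome 16 lay below those of chromosomes 11, 14 and 19 and overlapped that of chromosome 10. These intervals count each region singly, but the regions come in groups, 9 on chromosome 16 and 31 on chromosome 11. They are therefore too narrow, and the chromosomes were picked by rank, so no difference between chromosomes was tested. Chromosome 11 also had the most shared arm regions per Mb, 25.7, and chromosome 16, with the lowest share, had 15.8. Chromosome 17, with 24.4, had a share of 12.6%, and chromosome 14 had 16.9 per Mb. Density bears on having a neighbour within 2000 bp, and its part in the shares was not tested. The arms were used unequally on some chromosomes. On chromosome 15, 40 closely spaced regions lay in the arm at the start and 2 in the arm at the end, where 350 and 85 shared regions lay. On chromosome 20 there were 0 of 57 and 40 of 310. Over all chromosomes 524 lay in the arm at the start and 495 in that at the end.

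Within the arms, the closely spaced regions sat somewhat nearer the chromosome ends, at a median of 8.94% of chromosome length from the nearest end against 9.92% for lone regions. The 1 Mb stretches with the most closely spaced regions were 4 to 5 Mb on chromosome 4, with 14 of its 46 shared regions, and 5 to 6 Mb on chromosome 15, with 14 of 54. The stretch at 31 to 32 Mb on chromosome 11, which holds the group of 5, had 12 of 37. The difference in strength, which was not separated from 0 over the libraries, had either sign on single chromosomes. Averaged over the 4 libraries, median fold enrichment was higher in closely spaced than in lone regions on 13 of the 19 chromosomes. The log2 ratio ran from −0.20 on chromosome 3 to 0.24 on chromosome 6. Each chromosome rests on only 18 to 71 closely spaced regions, and whether the chromosomes differ was not tested.

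**Figure D5:**
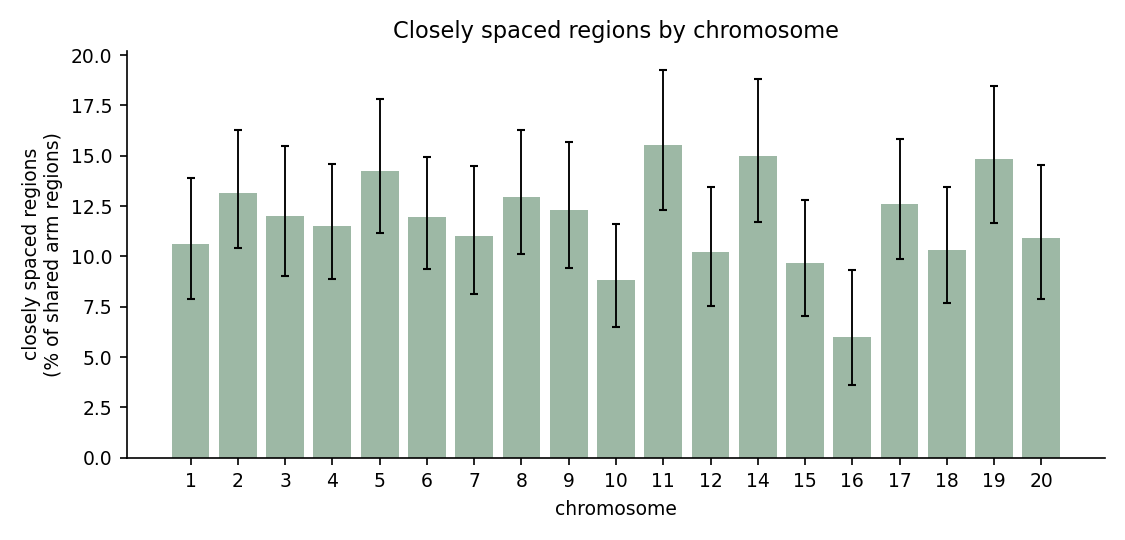
Closely spaced regions as a percentage of the shared arm regions of each chromosome, with chromosome 13 left out. Bars show the share and lines its 95% exact binomial interval, which counts grouped regions singly and is too narrow. Chromosome 11 is the highest at 15.5% and chromosome 16 the lowest at 6.0%.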

How the data were processed

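Reads and peaks were made with Bowtie 0.12.7 and MACS3, per the submitters' processing notes, and the deposited names show a q-value threshold of 0.01 with each library called separately. The sources used here give neither build nor caller options. The deposited values are fold enrichment (a ratio), −log10 p, −log10 q and a score of 10 times −log10 q, which was not used, all from the authors' peak caller. These are each peak's own values, relative to its library's background. Library totals were not used here.

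Regions, neighbours and arms followed the rules in the report, with chromosome length taken as the largest peak end in any list and the strongest peak standing for a library. Fragments came from solving fold enrichment = (pileup + 1)/(background + 1) together with −log10 p as the Poisson tail beyond the pileup, leaving out backgrounds below 2. Of 3000 sampled peaks a library, 602 to 1383 had a single solution below 60 fragments, and pileups were whole (tolerance 0.01) in 100% of these, in replicate 1 after division by 0.973 (antibody 1) and 0.749 (antibody 2). That the factors are a scaling to the control was assumed. Where several solutions existed, the one nearest a whole number was taken. After 15 PCR cycles without molecular identifiers, fragments are not independent molecules.

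Closely spaced and lone regions were compared over the 4 libraries by exact permutation tests, which cannot pass 0.05 with 4 libraries. Regions are not replicates and were not resampled. Named groups are the 10 strongest by worst percentile, those of 4 or more regions, the closest, widest and nearest outside pair, and the 5 most unequal pairs. The members, lists and tests were chosen with earlier results of these data known. The steps were tested on simulated data. Python 3.11.15, numpy 2.4.6, pandas 2.3.3 and scipy 1.17.1 were used. Alternatives changed the threshold, overlap, list length, distance, arms, chromosome 13 and the libraries.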

Additional observations from a re-analysis of the deposited data

How the results depend on the processing

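Among 136 values under other settings, 120 were counted as unchanged. Values with a test had the main direction and call. The others lay within 1.5 times (the number of regions), the binomial interval or 1 SD of the main value. No test could pass 0.05, so a tested value that kept its sign was counted as unchanged whatever its size. An example is the top 10% difference from lone regions, 2.20 points in the main setting and 0.283 with midpoints within 1000 bp. The number of closely spaced regions, 1019, followed the length of the lists and the distance allowed: 604 for peaks with −log10 q from 10 upward, 508 after cutting all lists to the shortest, 332 with midpoints within 1000 bp and 2214 within 5000 bp. Without 1 library it was 1043 to 2663, and 2663 came from leaving out antibody 1 replicate 1. The difference in median summit spread between closely spaced and lone regions, 0 bp, became 1.5 bp at that −log10 q limit and −2 bp with midpoints within 1000 bp, and 0 to 2 bp without 1 library. The width difference became −6.75 bp with midpoints within 1000 bp (exact permutation test over 4 libraries, p = 0.125), a distance that itself limits width. Pairs in which the same region was stronger in every library made up 61.4%, 69.1% by −log10 q, and 65.7% to 69.8% without 1 library, where 3 libraries in place of 4 must share the order. The share with a region of 1 to 3 libraries nearby, higher by 5.16 percentage points within 5000 bp, differed by −2.58 within 2000 bp. In that smaller window the rule places a shared neighbour beside each closely spaced region. The antibody difference, 0.012, was −0.0084 to 0.043 on the log2 scale without 1 library, negative without antibody 2 replicate 2. With the replicate number as a block it was 0.012 (exact permutation test, p = 1, where 0.5 is the smallest possible with 2 pairs). Deviations of same-numbered libraries in log2 fold enrichment correlated across the 8579 shared arm regions (r = 0.651), a hint from the data and not from the design. Fold enrichment holds the expected background. Its median at closely spaced regions was 7.11 and 7.35 in replicate 1 and 5.78 and 5.29 in replicate 2 (antibody 1 first). The part of the background in this correlation was not tested. The log2 difference in fold enrichment, 0.034, was 0.0046 to 0.039 without 1 library, and no alternative turned its sign. The cause of the changes was not tested, except where fewer peaks or a smaller distance leave fewer regions by construction. With 4 libraries no test over libraries could pass 0.05, so these p-values say nothing about stability, and differences of a few fragments at a single region were not detectable at this depth.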
